A study of Mus musculus with 14 samples.

Results

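The genes of the TGF-β and BMP pathways were followed in mouse intervertebral discs from 2 models of diabetes. The genes were taken by name from the gene count table, as the protein-coding genes of the *Tgfb*, *Tgfbr*, *Ltbp*, *Bmp*, *Bmpr*, *Gdf*, *Inha* and *Inhb*, *Acvr*, *Smad*, *Nog*, *Grem*, *Chrd*, *Fst*, *Fstl*, *Id* and *Ski* families with *Tgfbi* and *Bmper*. This gave 72 genes among 55487 in the table, of which 21936 are protein coding. Of the 72, 62 passed the filter on low counts and 10 did not. The filter asked for more than 1 CPM, that is 1 count in every 1000000 of the library total, in at least 3 libraries. The total was not scaled for this filter, whereas the CPM values from gene counts given below use library totals as scaled by TMM.

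TGF-β proteins are secreted in a latent form that latent TGF-β binding proteins (LTBPs) hold in the matrix until they are released. TGF-β, activins and BMPs each bind pairs of type I and type II receptor kinases, which phosphorylate Smad2 and Smad3 on the TGF-β and activin side or Smad1, Smad5 and Smad9 on the BMP side, and both sets enter the nucleus with Smad4. Secreted antagonists such as gremlin, noggin, chordin and follistatin trap the ligands, Smad6 and Smad7 inhibit the signal inside the cell, and the *Id* genes are well-known targets of BMP signalling. In the disc, these pathways are known for their part in forming the annulus fibrosus and in the production of cartilage matrix.

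The db/db mice are homozygous for a mutation of the leptin receptor gene *Lepr*, and their db/+ controls are heterozygous littermates that carry 1 mutant allele, both acquired at 12 weeks of age and given no treatment before sampling (n = 3 each). The STZ-HFD mice are C57BL/6J mice that, from 12 weeks of age, ate a high-fat diet for 4 to 6 weeks, received streptozotocin (STZ), a toxin of pancreatic β cells, once at 100 mg/kg, and stayed on the diet for a further 12 weeks, while the Con+Veh mice of the same strain ate standard chow and received the citrate buffer alone (n = 4 each). The Con+Veh mice carry the label wild type. All were males, and each library held the RNA of 5 tail discs pooled from 1 mouse, so a library is 1 animal and a mixture of nucleus pulposus, annulus fibrosus, endplate and whatever adhered to them. The models differ in strain history, age and schedule, so that each diabetic group was compared only with its own control.

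Libraries held 16076908 to 58943169 counts on genes, of which 28.1% to 60.2% were ribosomal RNA. The library STZ-HFD replicate 1 stood apart. It was the shallowest, and it had counts on 89.1% of 1768 olfactory and vomeronasal receptor genes, which a disc is not known to use, against 14.4% to 25.3% in the other 13 libraries. The median level of these receptor genes was 0.334 CPM per kb of exon in that library and 0 in every other one. Results of the STZ-HFD model are therefore also given without it. Markers of other tissues moved between the groups. The summed level of 10 skeletal muscle markers was 17453 to 40764 CPM in Con+Veh and 21203 to 58882 CPM in STZ-HFD, where 5 of the 10 were called higher, and 17888 to 21390 CPM in db/+ against 7492 to 15322 CPM in db/db, where 1 was called lower. In db/db, 7 osteoblast and osteocyte markers summed to 557 to 794 CPM against 894 to 1525 CPM in db/+, and 7 cartilage markers to 4899 to 13221 CPM against 12786 to 22917 CPM, with 0 called in both lists. The summed level of 8 adipocyte markers was 229 to 481 CPM in db/+ and 399 to 718 CPM in db/db, with 4 called higher, and 459 to 995 CPM in Con+Veh against 985 to 1171 CPM in STZ-HFD, with 1 called higher. Of the disc's own markers, 7 cartilage markers summed to 1337 to 3137 CPM in Con+Veh and 585 to 1252 CPM in STZ-HFD, with 4 of the 6 tested called lower, and 7 annulus and tendon markers to 1899 to 3746 CPM and 1050 to 3105 CPM, with 2 called lower. The 8 nucleus pulposus and notochord markers summed to 2001 to 5738 CPM and 3546 to 7786 CPM, with 0 called. In that list *Car3* alone stood at 1832 to 4442 CPM and 3321 to 7036 CPM, so that the sums mostly follow this gene. *Cd24a* stood at 119 to 833 CPM in Con+Veh and 92.7 to 469 CPM in STZ-HFD. *T* stood at 26 to 306 CPM and 62 to 175 CPM, and both genes overlapped between the groups. Of 7 macrophage markers, 3 were called lower in STZ-HFD, where they summed to 68.9 to 139 CPM against 98.9 to 225 CPM in Con+Veh. In such mixed samples, fewer cells of a type and less RNA per cell cannot be told apart.

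Per kb of exon, the most abundant of the 72 genes after *Bmpr2*, whose level is doubtful and is described separately, was *Grem1*, which encodes the BMP antagonist gremlin 1, at a mean of 46.6 CPM per kb over the 14 libraries. The groups differed widely, with means of 83.8 in db/+, 51.6 in db/db, 53.3 in Con+Veh, where replicate 4 was far above the others, and 8.36 CPM per kb in STZ-HFD, where *Ltbp4* at 26.2 CPM per kb and several other members stood higher. In the mean over all libraries it was followed by *Tgfbi*, which encodes a secreted matrix protein induced by TGF-β, at 37.6 CPM per kb and *Ltbp4* at 29.5 CPM per kb. The leading member inside the cell was *Smad4* at 28.8 CPM per kb, next to *Ski*, a repressor of Smad-dependent transcription, at 28.7 CPM per kb. Among the receptors, *Tgfbr3* (betaglycan, a co-receptor) stood at 25.1 CPM per kb and the type II receptor *Tgfbr2* at 12.1 CPM per kb. *Tgfb3* was the most abundant of the 3 TGF-β genes at 12.7 CPM per kb, against 7.69 for *Tgfb1* and 4.31 for *Tgfb2*. The BMP and GDF ligands were led by *Gdf10* at 10.4 CPM per kb, *Bmp4* at 7.41 and *Bmp3* at 5.98 in the mean over all libraries. *Gdf10* led in the db groups, at 14.1 and 19.3 CPM per kb, and *Bmp4* in Con+Veh and STZ-HFD, at 9.18 and 6.52 CPM per kb. The activin subunit gene *Inhba* was at 2.69 CPM per kb and led its group.

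**Figure D1:**
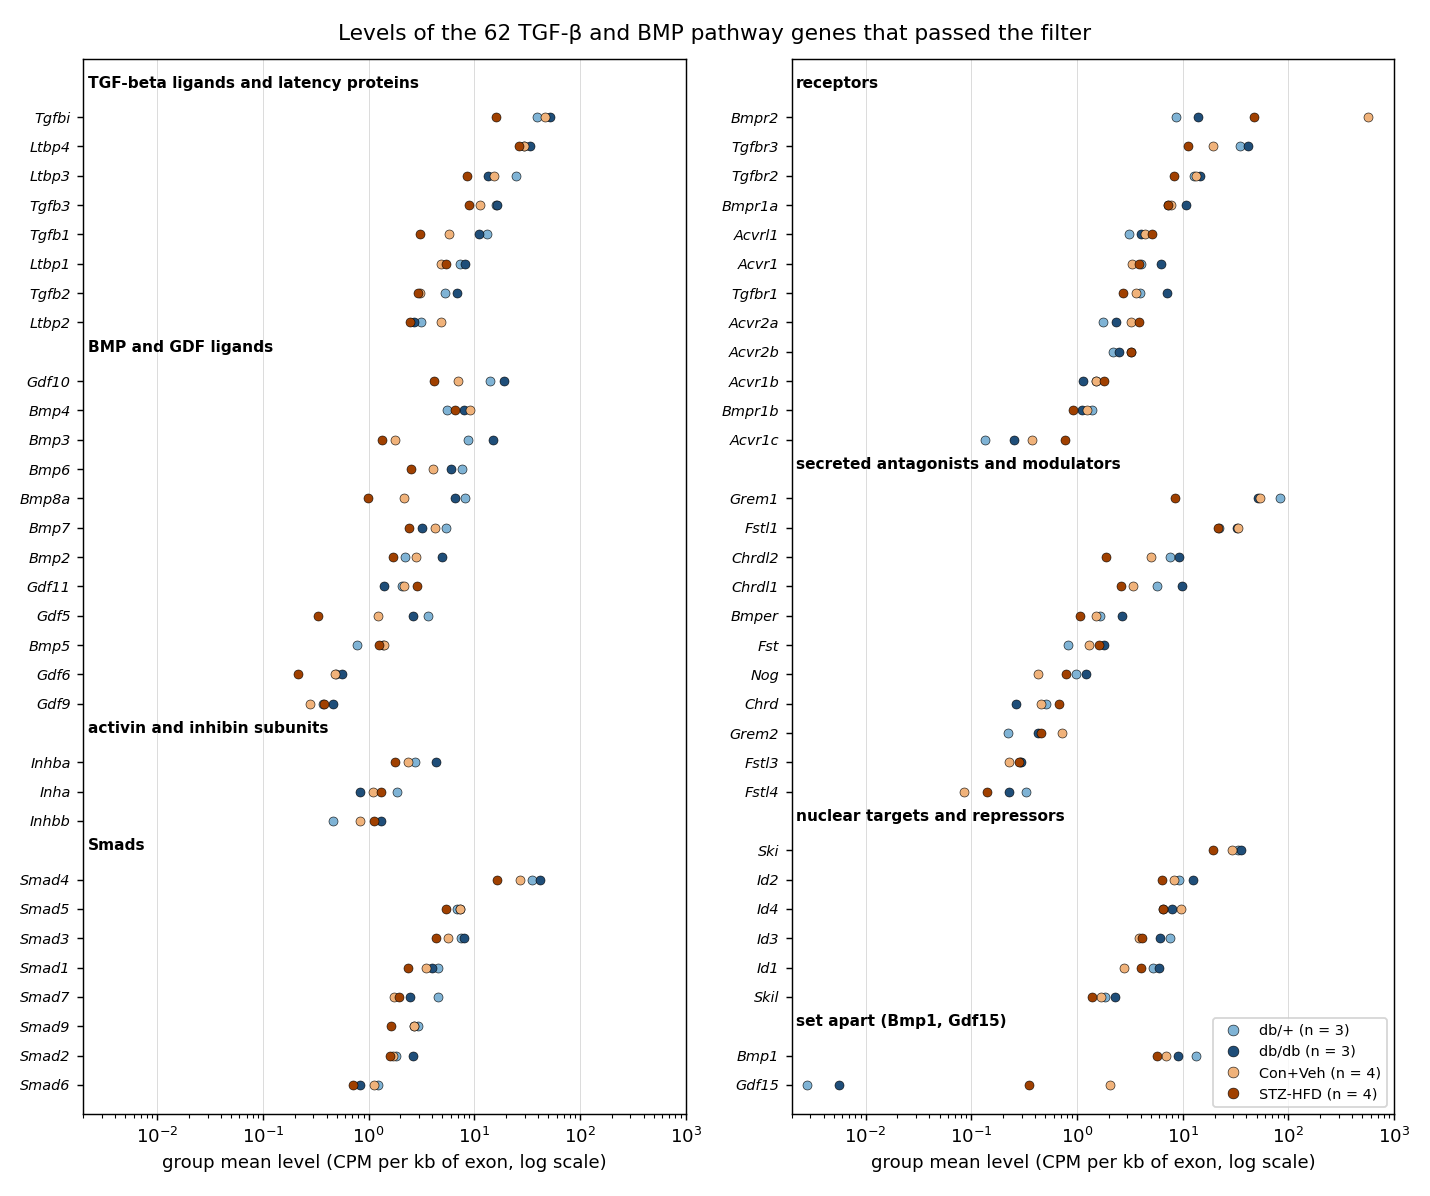
Group mean level of each of the 62 genes that passed the filter, in CPM per kb of exon on a log axis, arranged by role and by mean over all libraries. Points are the means of 3 db/+, 3 db/db, 4 Con+Veh and 4 STZ-HFD libraries. *Bmpr2* in Con+Veh lies far to the right of every other point, at 567 CPM per kb, and *Gdf15* in db/+ and db/db lies far to the left, at 0.0028 and 0.00566 CPM per kb.

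Levels of several members differed between the control groups of the 2 cohorts, as a description without a test. *Bmp3* was at 63.9 ± 22.8 CPM (SD, n = 3) in db/+ and 13.2 ± 3.67 CPM (SD, n = 4) in Con+Veh. *Tgfb1* was at 66.3 ± 22.2 CPM (SD, n = 3) in db/+ and 28.9 ± 8.79 CPM (SD, n = 4) in Con+Veh. *Fstl1*, which encodes a follistatin-related secreted protein, was at 107 ± 35.9 CPM (SD, n = 3) and 165 ± 39.9 CPM (SD, n = 4). The annulus and tendon markers summed to 18948 to 23122 CPM in db/+ and to 1899 to 3746 CPM in Con+Veh. Genotype, age, cohort and tissue mixture cannot be told apart in these levels.

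In db/db discs, 3 of the 62 genes were called higher than in db/+ and 0 lower (limma with Benjamini-Hochberg adjustment). A call needed both an adjusted p below 0.05 and a log2 fold change of 1 or more in size. The 3 were *Inhbb*, *Bmp2* and *Fst*. They encode a subunit of activin B, a BMP ligand, and follistatin, a secreted protein that binds activins. Of all 16915 genes tested, 1.23% were called higher and 0.432% lower. The median log2 fold change was 0.15 over the 62 genes and -0.04 over all genes tested, and 23 of the 62 were below 0 (37.1%, against 52.7% of all genes). At an unadjusted p under 0.05, 11 of the 62 were higher and 5 lower, against 10.7% and 10.4% of all genes. The median of the 62 turned to -0.02 without db/db replicate 3.

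*Inhbb* (ENSMUSG00000037035, chromosome 1 from 119415465 to 119422248 of GRCm38, minus strand) stood at 1.66, 2.26 and 1.91 CPM in the db/+ libraries and at 4.56, 5.18 and 6.91 CPM in the db/db libraries. Every db/db library lay above every db/+ library. The log2 fold change was 1.48 ± 0.28 (SE), a 2.79-fold rise (adjusted p = 0.0208, limma). *Bmp2* (ENSMUSG00000027358, chromosome 2 from 133552159 to 133562885) stood at 4.62, 9.1 and 9.84 CPM in db/+ and at 13.6, 16.5 and 22.4 CPM in db/db, again without overlap. It rose 2.28-fold, with a log2 fold change of 1.19 ± 0.28 (SE, adjusted p = 0.039, limma). *Fst* (ENSMUSG00000021765, chromosome 13 from 114452290 to 114458951) stood at 4.84, 3.04 and 3.51 CPM in db/+ and at 9.21, 8.33 and 7.26 CPM in db/db. These groups did not overlap either, and the log2 fold change was 1.16 ± 0.27 (SE, adjusted p = 0.0351, limma). Of its exonic bases, 2.51% are shared with the antisense gene *Gm47040*. Leaving out 1 library at a time gave log2 fold changes of 1.31 to 1.6 for *Inhbb*, 0.88 to 1.39 for *Bmp2* and 1.01 to 1.35 for *Fst*. The call was lost without db/+ replicate 2, db/+ replicate 3 or db/db replicate 3 for *Inhbb*, without any 1 of the 6 libraries of the model for *Bmp2*, and without any of them but db/+ replicate 1 for *Fst*. With the muscle marker score as a covariate, none of the 3 was called. *Bmp2* had a log2 fold change of 0.58 (adjusted p = 0.431, limma), *Inhbb* 1.27 (adjusted p = 0.102, limma) and *Fst* 1.33 (adjusted p = 0.0914, limma). With the adipocyte score none was called either, at adjusted p of 0.216 for *Bmp2*, 0.485 for *Inhbb* and 0.547 for *Fst* (limma). With the trend on GC content removed, *Fst* was at 0.96 (adjusted p = 0.0879, limma).

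**Figure D2:**
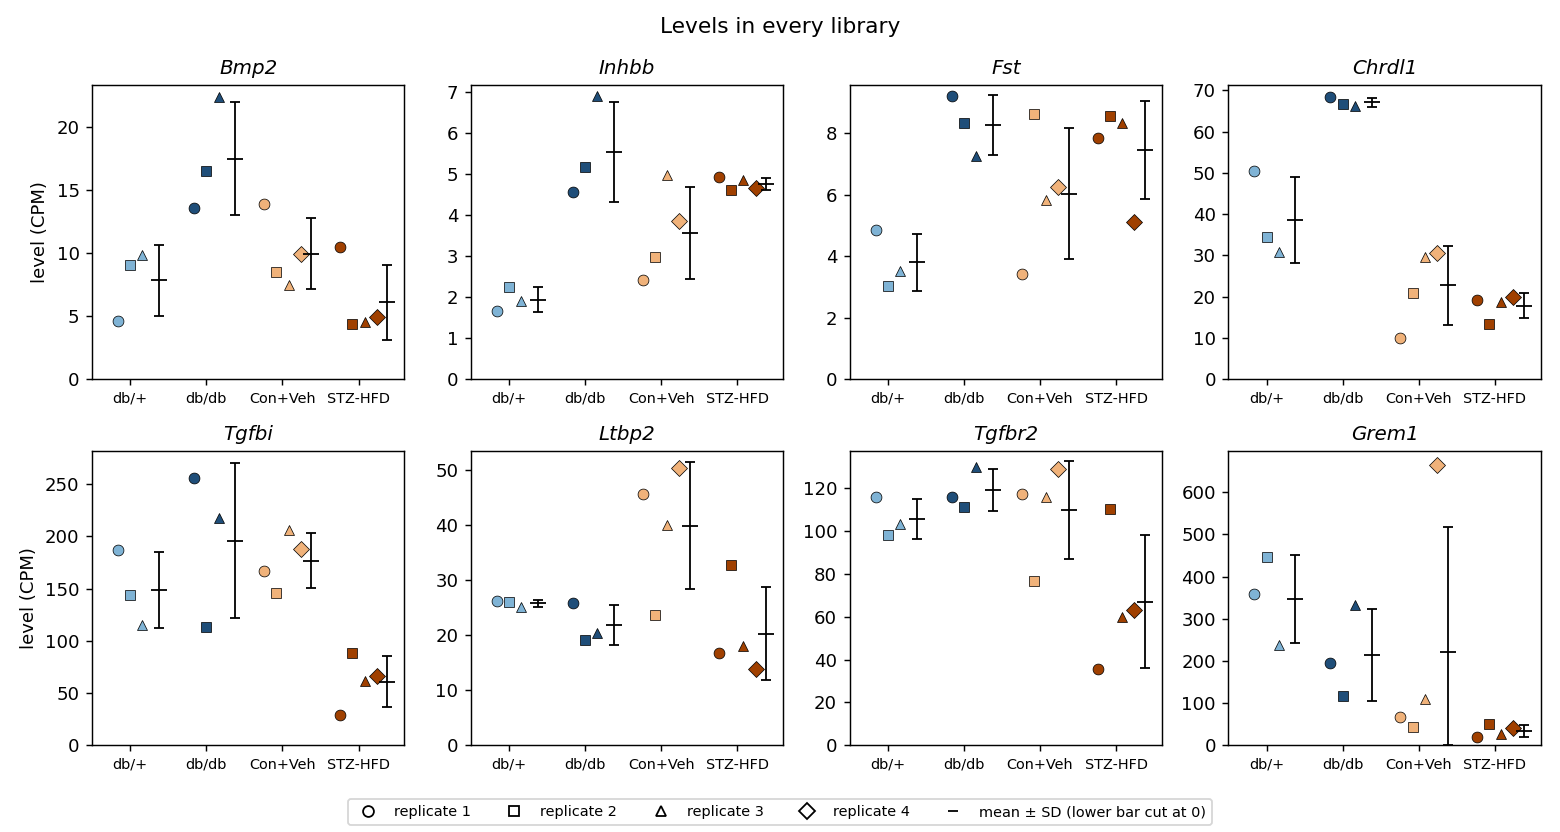
Level of 8 genes in every library, in CPM on linear axes that start at 0. Each symbol is 1 mouse, with its shape giving the replicate number, and the bar beside each group is the mean ± SD. The db/db libraries lie above all db/+ libraries for *Bmp2*, *Inhbb*, *Fst* and *Chrdl1*, the STZ-HFD libraries lie below all Con+Veh libraries for *Tgfbi*, and *Grem1* in Con+Veh replicate 4 lies far above its group.

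By role, the 12 receptors had a median log2 fold change of 0.39 in db/db, with 10 above 0 and 0 called, and the 11 antagonists tested a median of 0.17. The db/db fold changes went with the GC content of the genes (Spearman -0.428 across 16899 genes, which are not independent replicates). With that trend removed, the medians were 0.32 and 0.42, and the log2 fold change was 0.58 for *Tgfbr1*, 0.45 for *Bmp5* and -0.45 for *Ltbp3*. Their db/db and db/+ libraries did not overlap for 6 of the 12, all higher in db/db, namely *Tgfbr1*, *Bmpr1a*, *Bmpr2*, *Acvr1*, *Acvr1c* and *Acvr2a*. Over all 62 genes, the groups did not overlap for 15 genes that were higher and 4 that were lower, and of all genes tested 14.1% and 11.7% showed this. *Tgfbr1*, the type I receptor of TGF-β, stood at 25.1, 22.1 and 30.2 CPM in db/+ and at 45.9, 42 and 50.6 CPM in db/db (log2 fold change 0.86 ± 0.29 SE, adjusted p = 0.112, limma). From the transcript totals, with means of 6.1 and 6.52 CPM, it was 0.18 (adjusted p = 0.9, limma). The type I receptor of BMPs, *Bmpr1a*, was at 46.2 ± 5.74 CPM in db/+ and 68 ± 11.8 CPM in db/db (SD, n = 3 each), with a log2 fold change of 0.53 ± 0.23 (SE, adjusted p = 0.203, limma).

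Among the ligands in db/db, *Bmp3*, a BMP family member abundant in bone and cartilage, stood at 85.6, 40.1 and 66.1 CPM in db/+ and at 86.1, 118 and 131 CPM in db/db, which did not overlap by a margin of less than 1 CPM (log2 fold change 0.89 ± 0.3 SE, adjusted p = 0.116, limma). *Bmp5* stood at 3.98, 3.25 and 2.05 CPM and at 7.07, 5 and 4.41 CPM, also without overlap (adjusted p = 0.13, limma). The other direction was seen in the values of *Gdf11*, a ligand that acts on the activin side, with 9.27, 8.56 and 7.34 CPM in db/+ and 5.68, 6.09 and 5.31 CPM in db/db (log2 fold change -0.56 ± 0.22 SE, adjusted p = 0.16, limma). *Inha*, the inhibin α subunit that opposes activins when it pairs with a β subunit, had 2.75, 2.26 and 3.16 CPM in db/+ and 0.362, 1.26 and 2.06 CPM in db/db (log2 fold change -1.40 ± 0.55 SE, adjusted p = 0.157, limma). The estimate for *Inha* was -0.73 without db/db replicate 1 and 0.21 with the adipocyte score as a covariate. *Bmp7* was at 21.8 ± 3.59 CPM in db/+ and 12.9 ± 4 CPM in db/db (SD, n = 3 each), and its adjusted p was 0.291 (limma). *Inhba* stood at 13.4, 25.8 and 13.8 CPM in db/+ and at 29.9, 16.2 and 36.7 CPM in db/db, with overlapping libraries (adjusted p = 0.289, limma).

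None of the 3 TGF-β genes was called in db/db. *Tgfb1* stood at 67.6, 43.5 and 87.9 CPM in db/+ and at 32.5, 60.5 and 73.9 CPM in db/db (log2 fold change -0.22 ± 0.32 SE, adjusted p = 0.733, limma), and *Tgfb2* and *Tgfb3* had log2 fold changes of 0.38 ± 0.25 and -0.01 ± 0.27 (SE). *Ltbp3*, which is needed for the secretion of latent TGF-β, stood at 273, 193 and 212 CPM in db/+ and at 117, 96.6 and 154 CPM in db/db. These libraries did not overlap, and the log2 fold change was -0.89 ± 0.34 (SE, adjusted p = 0.146, limma). Of the antagonists, *Chrd* (chordin) stood at 2.15, 3.6 and 3.87 CPM in db/+ and at 1.24, 1.22 and 2.53 CPM in db/db (log2 fold change -1.01 ± 0.36 SE, adjusted p = 0.125, limma), and *Bmper*, a chordin-related modulator of BMPs, at 9.7, 5.44 and 8.6 CPM and at 11.8, 13.4 and 13.1 CPM (log2 fold change 0.77 ± 0.28 SE, adjusted p = 0.138, limma). The 8 Smads had a median log2 fold change of 0.03 and ranged from -0.92 to 0.52, and the 6 nuclear targets and repressors had a median of 0.13, with *Id1* at 0.10 ± 0.34 and *Id2* at 0.40 ± 0.23 (SE). No member of these last 2 groups was called.

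In STZ-HFD discs, 4 of the 62 genes were called lower than in Con+Veh and 0 higher. The 4 were *Tgfbi*, the matrix protein gene, *Ltbp2*, a member of the LTBP and fibrillin family that does not itself bind latent TGF-β, *Grem1* and *Bmpr2*, the type II BMP receptor. The fall of *Bmpr2* was not seen in the transcript table, as described with its values. Of all genes tested, 1.31% were called lower and 1.3% higher. The median log2 fold change was -0.51 over the 62 genes and -0.04 over all genes tested, and 43 of the 62 were below 0 (69.4%, against 52.8% of all genes). At an unadjusted p under 0.05, 25 of the 62 were lower and 2 higher, against 9.54% and 8.34% of all genes. Over the alternatives tried, the median of the members ranged from -0.58 to -0.37. Without STZ-HFD replicate 1 the same 4 genes were called, at log2 fold changes of -1.52 for *Tgfbi*, -1.19 for *Ltbp2*, -2.34 for *Grem1* and -3.22 for *Bmpr2*. The median was -0.52 without that library and -0.39 with the muscle marker score as a covariate. The fit gave the libraries unequal weights, 3.05 and 1.81 for Con+Veh replicates 3 and 4 and 1.52 and 1.53 for STZ-HFD replicates 3 and 4, against 0.275 to 0.688 for the other 4 libraries of this model, so that its fold changes lean on those 4 libraries. Without quality weights, or by edgeR's quasi-likelihood test, 0 of the 62 genes were called in either model, with 15 and 19 of them at an unadjusted p under 0.05 in STZ-HFD and 11 and 8 in db/db. Few of all 16915 genes were called in these fits. Without weights, 3 were higher and 16 lower in STZ-HFD and 7 and 2 in db/db. The quasi-likelihood test called 6 higher and 23 lower in STZ-HFD and 0 in db/db. At an unadjusted p under 0.05 there were 1748 and 2136 of all genes in STZ-HFD and 2322 and 1891 in db/db.

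*Tgfbi* (ENSMUSG00000035493, chromosome 13 from 56609523 to 56639562) stood at 167, 146, 206 and 188 CPM in Con+Veh and at 28.5, 88.2, 61.4 and 65.9 CPM in STZ-HFD. Every STZ-HFD library lay below every Con+Veh library, which in this model held for 6 of the 62 genes, while 1 gene was higher without overlap, against 2.77% and 1.97% of all genes tested. The log2 fold change was -1.63 ± 0.25 (SE), a 3.09-fold fall (adjusted p = 0.00419, limma). It ranged from -1.71 to -1.5 when 1 library at a time was left out, and the call was lost without Con+Veh replicate 3, Con+Veh replicate 4 or STZ-HFD replicate 3. With the muscle score as a covariate the log2 fold change was -2.4 (adjusted p = 0.0138, limma), and with the transcript table's totals it was -1.52 (adjusted p = 0.0112, limma), both calls. The call was lost with the adipocyte score (-1.84, adjusted p = 0.0847, limma) and with no filter on low counts (-1.43, adjusted p = 0.0622, limma).

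*Ltbp2* (ENSMUSG00000002020, chromosome 12 from 84783212 to 84876532, minus strand) stood at 45.6, 23.7, 40.1 and 50.3 CPM in Con+Veh and at 16.7, 32.7, 18 and 13.8 CPM in STZ-HFD. Con+Veh replicate 2 and STZ-HFD replicate 2 overlapped with the other group. The log2 fold change was -1.22 ± 0.23 (SE), a 2.32-fold fall (adjusted p = 0.0111, limma), and it ranged from -1.43 to -0.91 when 1 library at a time was left out. The call was lost without Con+Veh replicate 3 or 4 or STZ-HFD replicate 3 or 4. Of 13 other fits, 4 kept the call. It was lost by DESeq2 (-0.96, adjusted p = 0.063, DESeq2), with the muscle score (-1.58, adjusted p = 0.055, limma) and with the adipocyte score (-1.12, adjusted p = 0.272, limma). From the transcript table's totals, which ranged from 0 to 37.2 CPM (scaled to that table's own totals) over the 14 libraries, the log2 fold change was 1.88 (adjusted p = 0.674, limma). Of its exonic bases, 9.34% are shared with the antisense gene *D030025P21Rik*, and the sources used here do not state whether counting used the strand.

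*Grem1* (ENSMUSG00000074934, chromosome 2 from 113746164 to 113758646, minus strand) stood at 66.1, 43.4, 109 and 665 CPM in Con+Veh and at 18.9, 50.9, 27.7 and 41.2 CPM in STZ-HFD. Con+Veh replicate 4 was far above the rest of its group, and Con+Veh replicate 2 lay within the STZ-HFD range. The log2 fold change was -2.39 ± 0.57 (SE, adjusted p = 0.0299, limma). It ranged from -3.11 to -1.36 when 1 library at a time was left out, with the call lost without Con+Veh replicate 3 or 4 or STZ-HFD replicate 3 or 4. Of 13 other fits, 3 kept the call. It was lost by DESeq2 (-2.64, adjusted p = 0.0634, DESeq2) and with the muscle score (-3.46, adjusted p = 0.0919, limma). The adipocyte score (-1.95, adjusted p = 0.464, limma) and the transcript totals (-2.38, adjusted p = 0.129, limma) lost it too. In the other cohort *Grem1* stood at 359, 446 and 237 CPM in db/+ and at 194, 116 and 333 CPM in db/db, which overlapped (log2 fold change -0.83 ± 0.75 SE, adjusted p = 0.557, limma).

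Stretches in front of the annotated start were taken from RefSeq on GRCm38.p6 for 4 called genes, because *Tgfbi* is a known TGF-β target and Smad complexes bind short DNA elements. The table had entries for 51 of the 72 genes, with 63 windows of 250 bases. Capitals mark the letters CAGAC, the core of the Smad binding element, or its reverse GTCTG. Bases inside the gene's own annotated exons were left off, and each is written 5′ to 3′ on the gene's strand. They lie at chr13:56609336-56609522 for *Tgfbi*, chr12:84876533-84876741 for *Ltbp2*, chr2:113758649-113758898 for *Grem1* and chr1:119422249-119422498 for *Inhbb*.
Tgfbi: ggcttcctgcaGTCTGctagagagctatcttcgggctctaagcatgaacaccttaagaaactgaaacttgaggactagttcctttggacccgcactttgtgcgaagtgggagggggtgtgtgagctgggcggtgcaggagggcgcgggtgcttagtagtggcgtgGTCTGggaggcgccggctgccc
Ltbp2: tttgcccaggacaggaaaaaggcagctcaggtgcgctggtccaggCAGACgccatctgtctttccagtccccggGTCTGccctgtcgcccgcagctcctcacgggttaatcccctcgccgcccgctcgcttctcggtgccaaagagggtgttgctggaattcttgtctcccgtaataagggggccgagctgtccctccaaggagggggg
Grem1: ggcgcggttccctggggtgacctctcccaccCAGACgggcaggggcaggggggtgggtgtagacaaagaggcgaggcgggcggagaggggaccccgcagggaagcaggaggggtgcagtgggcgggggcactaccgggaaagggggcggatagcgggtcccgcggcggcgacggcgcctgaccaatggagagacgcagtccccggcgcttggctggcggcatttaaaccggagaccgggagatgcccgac
Inhbb: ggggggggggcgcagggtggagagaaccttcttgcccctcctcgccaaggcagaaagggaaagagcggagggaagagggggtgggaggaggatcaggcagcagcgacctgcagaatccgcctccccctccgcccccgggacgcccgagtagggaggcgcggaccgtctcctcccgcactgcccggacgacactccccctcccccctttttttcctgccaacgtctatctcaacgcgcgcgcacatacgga
The stretches of *Tgfbi* and *Ltbp2* each hold 2 matches, that of *Grem1* holds 1 and that of *Inhbb* holds 0. On either strand, CAGAC occurs in 49.2% of the 63 windows of the members and in 42.2% of all 32851 windows of the table, so a match is common in any gene. The GC-rich element GGCGCC, bound by BMP Smads, occurs in 22.2% and 9.59%, and the palindrome GTCTAGAC in 0% and 0.167%. *Bmp2*, *Fst* and *Chrdl1* have no entry, and the window of *Bmpr2*, which lies inside the annotated span of the gene and holds 0 CAGAC matches, is not shown.

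The count of *Bmpr2* (ENSMUSG00000067336, chromosome 1 from 59763400 to 59879014) depended on the table. In the gene table it stood at 132, 267, 13372 and 27030 CPM in Con+Veh and at 182, 533, 1199 and 1461 CPM in STZ-HFD, against 144, 149 and 168 CPM in db/+ and 202, 237 and 303 CPM in db/db. Con+Veh replicates 3 and 4 alone held 284522 and 497630 counts. Summed over its transcripts in the transcript table, the same libraries held 839 and 804 estimated counts. The gene count was 339 and 619 times the transcript count in these 2 libraries, 2.61 to 3.5 times in the 6 db libraries and Con+Veh replicates 1 and 2, and 4.94 to 29.8 times in STZ-HFD. Scaled to that table's own library totals, the transcript totals were 321, 535, 325 and 339 CPM in Con+Veh and 480, 258, 276 and 355 CPM in STZ-HFD, which overlap. The log2 fold change was -3.47 ± 0.8 (SE, adjusted p = 0.0267, limma) from the gene counts and 0.09 (adjusted p = 0.917, limma) from the transcript totals, and the call from the gene counts was lost without Con+Veh replicate 3 or 4 or STZ-HFD replicate 3 or 4. Without *Bmpr2*, the calls of the STZ-HFD model among these genes are *Tgfbi*, *Ltbp2* and *Grem1*.

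**Figure D3:**
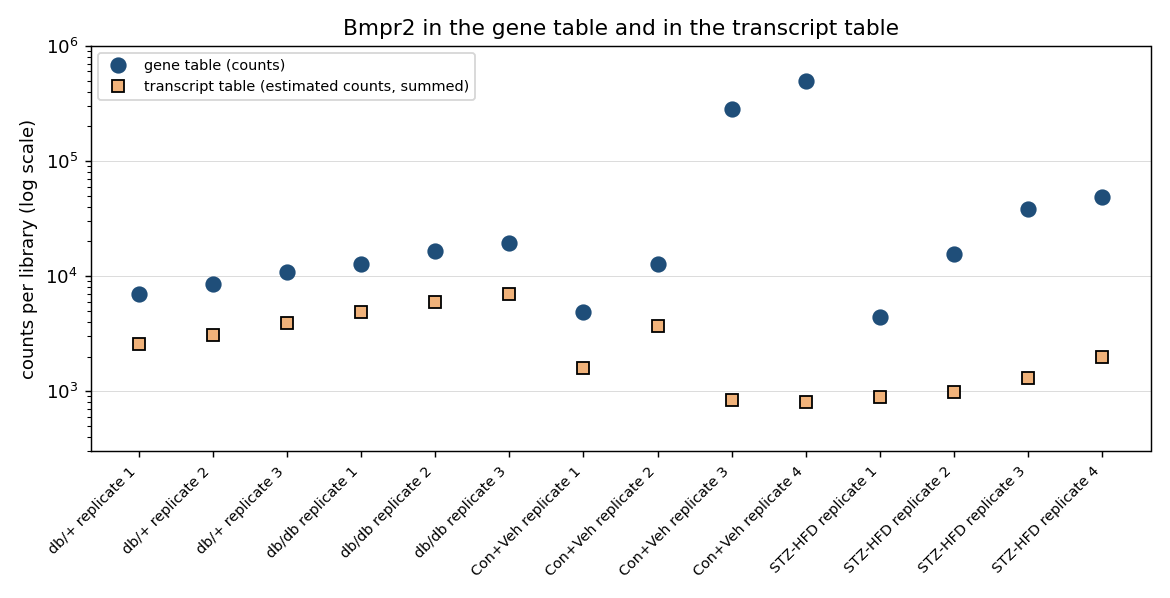
Counts of *Bmpr2* in each of the 14 libraries on a log axis, with circles for the gene table and squares for the estimated counts summed over its transcripts. The 2 tables run in parallel in the db libraries and part in Con+Veh replicates 3 and 4, where the gene table gives 284522 and 497630 counts while the transcripts sum to 839 and 804 estimated counts.

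Beside these 4 genes, the receptor *Tgfbr2* had an adjusted p under 0.05 but not the minimum fold change. It stood at 117, 76.5, 116 and 129 CPM in Con+Veh and at 35.5, 110, 59.7 and 63 CPM in STZ-HFD, with STZ-HFD replicate 2 inside the Con+Veh range (log2 fold change -0.86 ± 0.21 SE, adjusted p = 0.0317, limma). *Tgfbr3* stood at 127, 117, 132 and 133 CPM and at 37, 88.2, 71.5 and 98.5 CPM, without overlap (log2 fold change -0.74 ± 0.23 SE, adjusted p = 0.0804, limma). The 12 receptors did not share a direction in STZ-HFD. They had a median log2 fold change of 0.06, with 5 below 0. The 6 genes named as activin receptors (*Acvr*) ranged from 0.03 for *Acvrl1* to 0.57 for *Acvr1*, and none was called.

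The ligands and antagonists had lower medians than the receptors in STZ-HFD. Of 12 BMP and GDF ligands tested, 11 were below 0, with a median of -0.78, and 0 were called. *Gdf10* stood at 28.5, 35.7, 40.5 and 41.1 CPM in Con+Veh and at 10.9, 27, 21 and 28 CPM in STZ-HFD, without overlap (log2 fold change -0.78 ± 0.23 SE, adjusted p = 0.0697, limma). *Bmp7* stood at 24.4, 6.19, 24 and 13.5 CPM and at 13.7, 10.1, 3.42 and 11.7 CPM, with overlap (log2 fold change -1.26 ± 0.42 SE, adjusted p = 0.11, limma). The estimate was -0.61 without STZ-HFD replicate 3, -0.73 without Con+Veh replicate 3 and -0.4 with the muscle score. *Gdf6*, a growth factor known for its part in spine and joint formation, was near the filter at 1.44, 0.54, 1.93 and 2.88 CPM in Con+Veh and 1.93, 0.413, 0.342 and 0.357 CPM in STZ-HFD, with replicate 1 apart from the other 3 (log2 fold change -2.04 ± 0.74 SE, adjusted p = 0.142, limma). The exception above 0 was *Gdf11*, at 11.5, 5.42, 8.18 and 9.67 CPM in Con+Veh and 10.8, 11.2, 13.7 and 11.1 CPM in STZ-HFD (log2 fold change 0.52 ± 0.21 SE, adjusted p = 0.186, limma). Of 11 antagonists and modulators tested, 8 were below 0, with a median of -0.76. They included *Fstl1* at 165 ± 39.9 CPM in Con+Veh and 106 ± 65.1 CPM in STZ-HFD (SD, n = 4 each) and *Chrdl2*, whose libraries did not overlap, at 18.2 ± 9.34 CPM and 6.82 ± 1.55 CPM (SD, n = 4 each), with adjusted p of 0.176 and 0.181 (limma). *Nog* (noggin) was the gene that was higher without overlap, at 0.727 ± 0.38 CPM and 1.33 ± 0.205 CPM (SD, n = 4 each), with an adjusted p of 0.504 (limma).

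Among the TGF-β genes in STZ-HFD, *Tgfb1* stood at 36.5, 16.2, 31.2 and 31.8 CPM in Con+Veh and at 9.37, 22, 12.9 and 17.1 CPM in STZ-HFD (log2 fold change -0.97 ± 0.29 SE, adjusted p = 0.0785, limma). *Tgfb2* and *Tgfb3* had log2 fold changes of 0.01 ± 0.23 and -0.01 ± 0.23 (SE). *Ltbp3* stood at 215, 64.1, 120 and 158 CPM and at 32.4, 125, 77.1 and 76.2 CPM, with overlap (log2 fold change -0.74 ± 0.26 SE, adjusted p = 0.134, limma). The 8 Smads had a median of -0.52, with 6 below 0. *Smad4* stood at 92.2, 98.8, 101 and 105 CPM in Con+Veh and at 38.7, 53.7, 63.8 and 88.2 CPM in STZ-HFD, without overlap (log2 fold change -0.61 ± 0.21 SE, adjusted p = 0.12, limma), and *Smad5* was the other Smad whose groups did not overlap (adjusted p = 0.169, limma). *Ski* stood at 215, 112, 147 and 181 CPM and at 64.2, 150, 124 and 94.2 CPM (log2 fold change -0.53 ± 0.21 SE, adjusted p = 0.193, limma). The *Id* genes had log2 fold changes of 0.59 ± 0.45 for *Id1*, -0.43 ± 0.21 for *Id2*, -0.18 ± 0.35 for *Id3* and 0.01 ± 0.41 for *Id4* (SE), and none was called. Muscle markers were called higher and cartilage markers lower in STZ-HFD, with the sums given above, and apart from the muscle and adipocyte scores their part in the members' values was not tested.

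**Figure D4:**
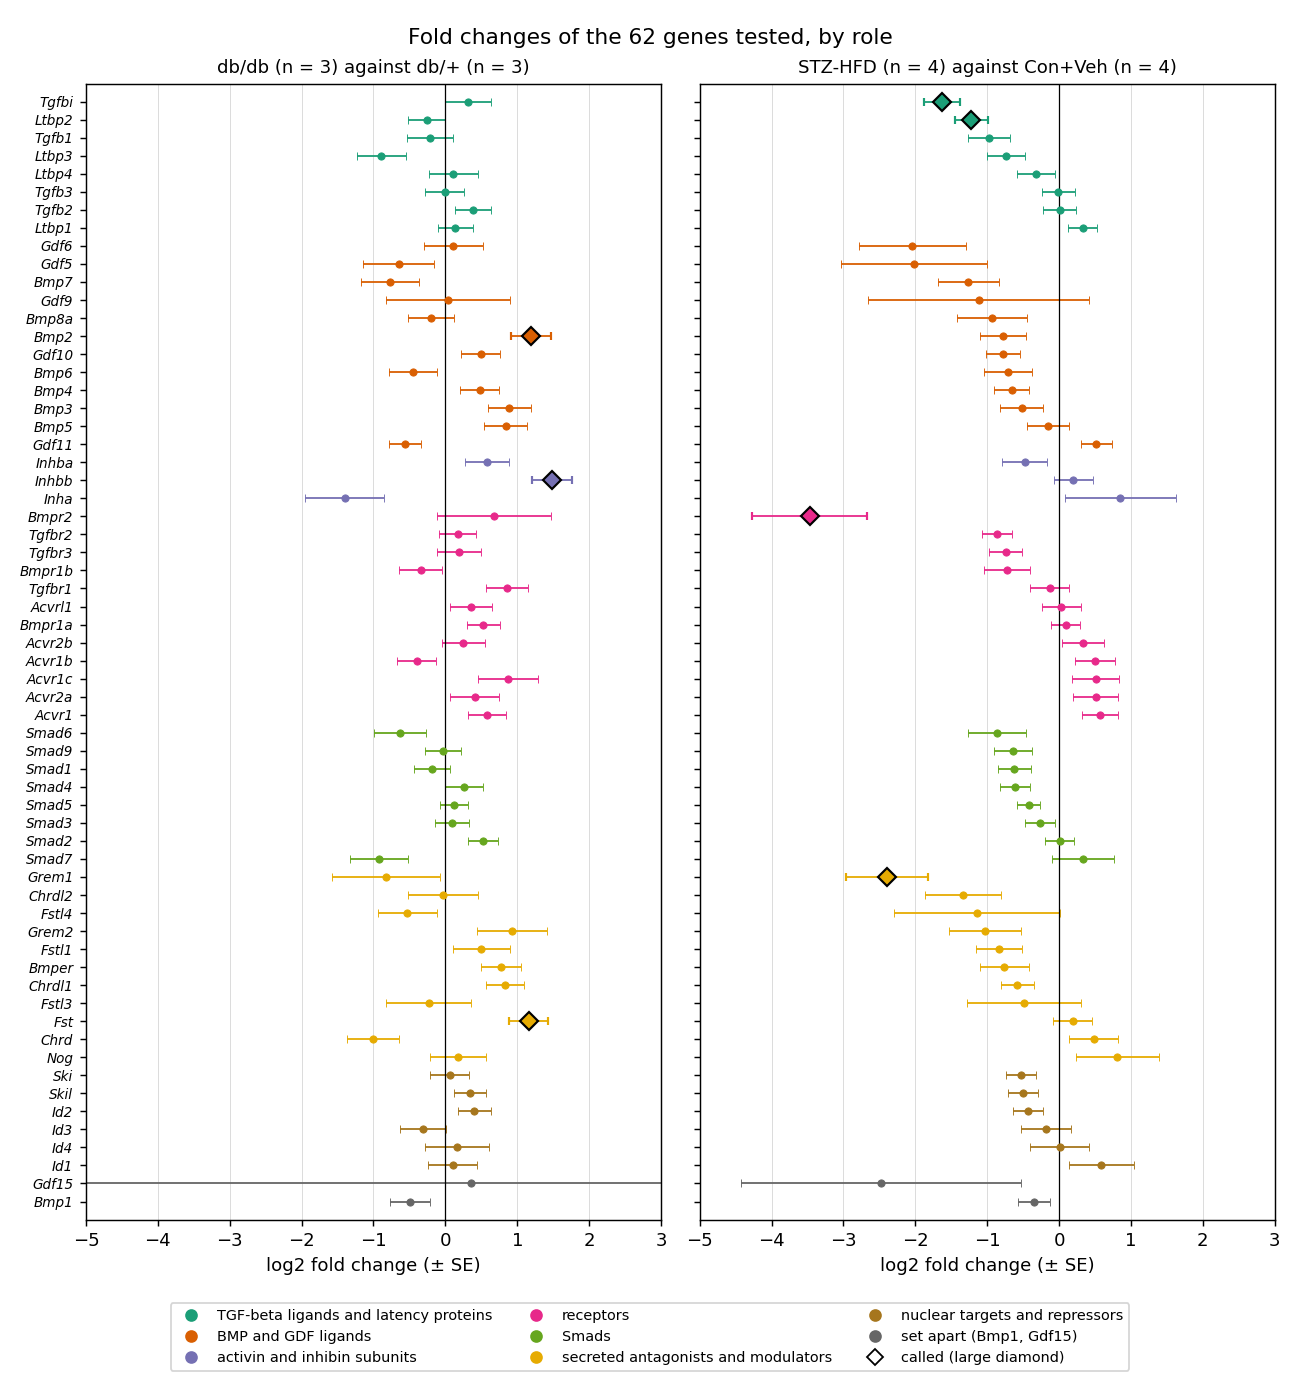
Log2 fold change of the 62 genes tested in db/db against db/+ and in STZ-HFD against Con+Veh, with the SE as bars, coloured by role and ordered within a role by the STZ-HFD value. Large diamonds are called genes, which lie right of 0 in db/db (*Bmp2*, *Inhbb*, *Fst*) and left of 0 in STZ-HFD (*Tgfbi*, *Ltbp2*, *Bmpr2*, *Grem1*). The SE of *Gdf15* in db/db, 6.37, runs past the axis.

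In the other cohort, the 3 genes called in db/db were not called. *Inhbb* stood at 2.42, 2.99, 4.98 and 3.86 CPM in Con+Veh and at 4.93, 4.61, 4.85 and 4.67 CPM in STZ-HFD, where a single control library lay above the treated ones (log2 fold change 0.20 ± 0.27 SE, adjusted p = 0.752, limma). *Fst* stood at 3.42, 8.62, 5.83 and 6.25 CPM and at 7.85, 8.56, 8.32 and 5.11 CPM, with overlap (log2 fold change 0.19 ± 0.27 SE, adjusted p = 0.763, limma). *Bmp2* is described with the difference between the models, which was called for *Bmp2* and not for *Inhbb* (adjusted p = 0.0956, limma) or *Fst* (adjusted p = 0.187, limma). Among the other genes named for db/db, *Bmp3* stood at 11.5, 9.25, 14.4 and 17.7 CPM in Con+Veh and at 6.78, 11.7, 7.58 and 13.5 CPM in STZ-HFD. *Bmp5* stood at 2.77, 6.81, 6.02 and 7.06 CPM and at 3.74, 4.47, 5.22 and 6.75 CPM. *Tgfbr1* stood at 15.6, 40.6, 21.7 and 16.8 CPM and at 16.7, 9.08, 19.9 and 26.1 CPM. These 3 genes overlapped between the groups and had adjusted p of 0.38 or more (limma). *Bmper* stood at 4.81, 10.7, 9.16 and 4.35 CPM in Con+Veh and at 8.14, 4.26, 3.57 and 4.52 CPM in STZ-HFD. *Chrd* stood at 3.15, 2.22, 3.9 and 2.06 CPM and at 4.23, 4.13, 3.73 and 4.67 CPM, again with overlap. The inhibin and activin subunits overlapped as well, with *Inha* at 2.88, 1.58, 0.376 and 1.58 CPM in Con+Veh and 1.27, 3.37, 0.683 and 2.32 CPM in STZ-HFD, and *Inhba* at 15.2, 11.6, 13.3 and 19.8 CPM and 12.1, 11.7, 12.6 and 8.56 CPM.

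Conversely, the genes named for STZ-HFD overlapped between db/+ and db/db except *Bmp7*, *Bmpr2* and *Ltbp3*. *Ltbp2* stood at 26.3, 26.1 and 25.1 CPM in db/+ and at 25.9, 19.2 and 20.4 CPM in db/db (log2 fold change -0.26 ± 0.26 SE, adjusted p = 0.593, limma). *Tgfbr2* stood at 116, 98.1 and 103 CPM and at 116, 111 and 130 CPM, and *Tgfbr3* at 236, 231 and 210 CPM and at 192, 217 and 412 CPM. The co-receptor was thus highest in a single db/db library. *Smad4* stood at 114, 119 and 154 CPM in db/+ and at 109, 156 and 201 CPM in db/db. *Ski* stood at 201, 161 and 199 CPM and at 180, 155 and 254 CPM, so that both of these Smad partners had a wider range in db/db than in db/+. *Gdf10* stood at 74.2, 54.5 and 92.1 CPM in db/+ and at 75, 104 and 123 CPM in db/db. *Gdf6* stood at 1.83, 1.72 and 1.63 CPM and at 1.13, 1.88 and 2.99 CPM. *Bmp7* stood at 21.5, 18.4 and 25.6 CPM in db/+ and at 9.38, 17.2 and 12 CPM in db/db, where every library lay below the controls without a call.

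The difference between the models was tested as the STZ-HFD fold change minus the db/db fold change. Of the 62 genes, 3 were called lower and 0 higher, against 0.816% and 0.952% of all genes tested (1.77% in either direction). At an unadjusted p under 0.05, 23 of the 62 were lower and 5 higher, against 8.94% and 8.35% of all genes (17.3% in either direction). The median difference was -0.60, with 48 of the 62 below 0 (77.4%, against 51.5% of all genes). *Tgfbi* had a difference of -1.95 ± 0.4 (SE, adjusted p = 0.0267, limma), with an overlap of libraries in db/db, where it stood at 187, 144 and 115 CPM in db/+ and 256, 113 and 218 CPM in db/db. *Bmp2* had a difference of -1.96 ± 0.43 (SE, adjusted p = 0.0311, limma). Its level in the STZ-HFD cohort was 13.9, 8.54, 7.47 and 9.94 CPM in Con+Veh and 10.5, 4.37, 4.57 and 4.96 CPM in STZ-HFD, where the change alone was not called (log2 fold change -0.78 ± 0.32 SE, adjusted p = 0.203, limma). *Chrdl1* (ENSMUSG00000031283), which encodes a chordin-like BMP antagonist, had a difference of -1.41 ± 0.35 (SE, adjusted p = 0.0488, limma) while neither model alone was called. It stood at 50.4, 34.4 and 30.8 CPM in db/+ and 68.4, 66.7 and 66.3 CPM in db/db, without overlap, and at 9.92, 21, 29.7 and 30.5 CPM in Con+Veh and 19.1, 13.3, 18.8 and 20 CPM in STZ-HFD, with overlap. Leaving out 1 library at a time gave -2.3 to -1.71 for *Tgfbi*, -2.19 to -1.66 for *Bmp2* and -1.64 to -1.2 for *Chrdl1*, with the call kept in 8, 6 and 4 of 14 such fits. With the trend on GC content removed, *Chrdl1* was not called (-1.12, adjusted p = 0.115, limma). With the muscle score as a covariate the difference of *Bmp2* was -0.81 (adjusted p = 0.582, limma) and that of *Tgfbi* -3.3 (adjusted p = 0.0326, limma).

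A second list held 70 other genes of these pathways that the names above leave out, such as activating proteases, matrix proteins that bind TGF-β, co-receptors and target genes, and 61 of them were tested. In db/db, 1 was called higher and 0 lower, with a median log2 fold change of 0.05. This was *Aspn*, which encodes asporin, a small proteoglycan that binds TGF-β, at 20.1, 19.3 and 13.1 CPM in db/+ and 100, 32 and 41 CPM in db/db (log2 fold change 1.53 ± 0.33 SE, adjusted p = 0.0304, limma). In STZ-HFD, 3 were called lower and 2 higher, against 1.31% and 1.3% of all genes, with a median of -0.29 against -0.04 over all genes. *Thbs1*, which encodes thrombospondin 1, an activator of latent TGF-β, fell from 452 ± 257 CPM to 152 ± 60.3 CPM (SD, n = 4 each; log2 fold change -1.95 ± 0.31 SE, adjusted p = 0.00454, limma). *Dcn* (decorin), another proteoglycan that binds TGF-β, fell from 800 ± 345 CPM to 299 ± 53.5 CPM (SD, n = 4 each; log2 fold change -1.65 ± 0.26 SE, adjusted p = 0.00458, limma). *Cd109*, a TGF-β co-receptor, fell from 65.8 ± 16.8 CPM to 30.4 ± 4.98 CPM (SD, n = 4 each; log2 fold change -1.15 ± 0.21 SE, adjusted p = 0.0102, limma). The 2 that rose were *Hjv*, a BMP co-receptor that skeletal muscle also expresses, at a log2 fold change of 1.42 ± 0.26 (SE, adjusted p = 0.00969, limma), and *Itgb6*, the β subunit of an integrin that activates TGF-β, at 1.52 ± 0.36 (SE, adjusted p = 0.0281, limma). Muscle markers were also called higher in these libraries, and with the muscle score as a covariate neither was called, at log2 fold changes of 0.68 for *Hjv* (adjusted p = 0.321, limma) and 1.25 for *Itgb6* (adjusted p = 0.259, limma), nor was *Cd109* (adjusted p = 0.0653, limma), while *Thbs1* and *Dcn* were. By edgeR's quasi-likelihood test and with the adipocyte score, none of the 6 called genes of this list was called, at adjusted p of 0.116 to 0.424 and 0.0514 to 0.593. Of all genes tested, these 2 fits called 0 in db/db. In STZ-HFD they called 6 higher and 23 lower, and 2 higher and 3 lower. The TGF-β target genes *Ccn2* and *Postn* were not called in STZ-HFD, with log2 fold changes of -0.65 ± 0.31 and -0.52 ± 0.27 (SE).

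The 10 genes below the filter were *Bmp8b*, *Bmp10*, *Bmp15*, *Gdf1*, *Gdf2*, *Gdf3*, *Gdf7*, *Fstl5*, *Inhbc* and *Inhbe*. For 7 of them the highest level was that of STZ-HFD replicate 1, the library with counts on receptor genes of other tissues. *Fstl5* had 138 of its 149 counts there, *Inhbc* 55 of 71, *Bmp15* 54 of 68 and *Bmp10* 51 of 65, and for these 4 no other library had more than 8 counts. *Gdf1* had 0 counts in all 14 libraries, which allows a level of up to 0.0509 to 0.187 CPM by library. This bound is set by 3 counts over the library total before TMM scaling and covers counting error only. The transcript table does not bear out so low a level, since it gives *Gdf1* 1.51 CPM in db/+ replicate 1, 8.19, 1.61 and 3.87 CPM in Con+Veh replicates 1 to 3, 2.68 and 4.06 CPM in STZ-HFD replicates 1 and 3 and 0 in the other 8 libraries, so that its level is uncertain. *Bmp8b* and *Bmp8a* are close paralogs, so reads may be split between them, and the values of *Bmp8a* (19.5 ± 8.03 CPM in db/+, 5.22 ± 2.7 CPM in Con+Veh, SD) are uncertain to that extent. *Bmp1*, a protease that was named with the BMPs but is not one of them, stood at 133, 82.8 and 140 CPM in db/+, 85.6, 85.9 and 70.4 CPM in db/db, 81, 37.3, 67.7 and 61.3 CPM in Con+Veh and 29.7, 78, 47.2 and 48.2 CPM in STZ-HFD, with overlap in both models and adjusted p of 0.316 and 0.455 (limma).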

How the data were processed

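RNA was extracted from discs of 14 mice, amplified as cDNA and sequenced. Per the labels and the study's methods, the authors aligned reads to GRCm38 and deposited gene counts that are raw and not normalised. The authors also deposited transcript-level estimated counts. Neither source states whether counting used the strand. After removal of 287 identical repeated lines, the gene table held 55487 genes. Libraries held 16076908 to 58943169 counts, so that 3 counts correspond to 0.0509 to 0.187 CPM of the unscaled library totals.

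Members were found by name, and the members and the gene lists were chosen with earlier results of these data known. Genes above 1 CPM of the unscaled library total in at least 3 libraries were kept (16915). TMM factors (edgeR 4.0.16) and voom with sample quality weights (limma 3.58.1, R 4.3.3) were used, as in the study, here in 1 fit over the 4 groups with contrasts for each model and for their difference and Benjamini-Hochberg adjustment over all genes tested. A call needed an adjusted p below 0.05 and a log2 fold change of at least 1 in size. Named genes were every called member plus up to 12 members per model and 3 of the difference with the smallest p, and the most abundant member of each role per kb. CPM per kb used the exon length of GENCODE M21. In data simulated for 16915 genes, limma recovered 43.5% (db/db) and 55% (STZ-HFD) of 200 genes changed by 2 on the log2 scale. The quasi-likelihood test of edgeR recovered 44% and 63%, and DESeq2 64% and 75%. The simulated libraries shared 1 base level per gene, without the differences in tissue mixture and quality seen here, so these shares may not hold for the data. The alternatives comprised DESeq2 1.42.0, the quasi-likelihood test of edgeR, other scaling and filters, transcript totals (rounded), marker scores as covariates, a GC correction, a replicate block and leaving out libraries. Each library is 1 mouse, and the tests set a difference against the spread between mice within the 4 groups. In the main fit the libraries counted unequally, with weights of 0.275 to 3.05.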

Additional observations from a re-analysis of the deposited data

Results flagged for a closer look

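Among 52 groups of 4 libraries of the named genes, 4 held a library far from the other 3, where chance gives about 1 in 20. *Bmp2* stood at 10.5 CPM in STZ-HFD replicate 1 against 4.37 to 4.96 CPM in the other 3, and *Gdf6* at 1.93 CPM in the same library against 0.342 to 0.413 CPM. *Gdf11* stood at 13.7 CPM in STZ-HFD replicate 3 against 10.8 to 11.2 CPM. *Grem1* stood at 665 CPM in Con+Veh replicate 4 against 43.4 to 109 CPM. For 3 genes the log2 fold changes of the models differed by the test of the difference (limma with Benjamini-Hochberg adjustment), at -1.96 for *Bmp2*, -1.95 for *Tgfbi* and -1.41 for *Chrdl1*.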

How the results depend on the processing

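The counts of called members were 3 in db/db, 4 in STZ-HFD and 3 in the difference, and they moved with the processing. The edgeR quasi-likelihood test gave 0, 0 and 0 calls, with 8, 19 and 16 members at an unadjusted p under 0.05, and voom without quality weights gave 0, 0 and 0. Of all 16915 genes, the quasi-likelihood test called 0 in db/db, 6 higher and 23 lower in STZ-HFD, and 0 and 5 in the difference. Without weights these calls were 7 and 2, 3 and 16, and 0 and 3, so few genes of any kind were called. With DESeq2 there was 1 call in each model, with the muscle score there were 1 (db/db) and 2 (STZ-HFD), the transcript totals gave 0, 1 and 1, and the adipocyte score 0, 0 and 1. Of all genes, the adipocyte score left 0 calls in db/db and 2 higher and 3 lower in STZ-HFD. The muscle score left 81 higher and 17 lower in db/db and 8 higher and 42 lower in STZ-HFD. The counts with the muscle score include members that were not called in the main fit. With that score, none of *Inhbb*, *Bmp2* and *Fst* was called in db/db, and of the 4 genes of STZ-HFD only *Tgfbi* was. No filter on low counts gave 5 in db/db and 0 in STZ-HFD, edgeR's own filter 2 in STZ-HFD and each model fitted alone 2 in STZ-HFD. Without Con+Veh replicate 2 and STZ-HFD replicate 4, whose library names share an ending, the difference had 1. Scaling by DESeq2's size factors, removing the GC trend and dropping the minimum fold change kept all 3 counts within 1.5 times. Leaving out 1 library at a time gave 0 to 3 calls in db/db, 0 to 6 in STZ-HFD and 0 to 4 in the difference. Signs turned for *Inha* in db/db with the adipocyte score (0.21) and for *Bmpr2* (0.09) and *Ltbp2* (1.88) in STZ-HFD with the transcript totals. Of the other values of named genes under an alternative, 591 kept their side of the threshold, 126 lost a call and 6 gained one. The 591 include values of genes not called in the main fit, which had no call to lose. For the called genes, the call was kept least often for *Chrdl1* in the difference, in 5 of 26 fits. It was kept most often, in 19 of 27 fits, for *Tgfbi* in STZ-HFD and *Inhbb* in db/db. The cause was not tested.

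Whether the replicate numbers pair the mice is not stated in the labels or the study's methods. Deviations of same-numbered libraries correlated at -0.25 to 0.175 in db/db and at -0.23 to -0.0545 in STZ-HFD. Those of libraries with different numbers correlated at -0.255 to 0.419 and at -0.161 to 0.263, so same-numbered libraries were not more alike. With so few mice per group, these values cannot decide it. With the replicate number as a block, 6 members were called in db/db, 0 in STZ-HFD and 0 in the difference. Over all genes tested, the block gave 796 calls higher and 688 lower in db/db, against 208 and 73 in the main fit. In STZ-HFD it gave 2 higher and 4 lower, against 220 and 221.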

Other observations

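*Gdf15*, a stress-induced member of the family, had 203 and 101 counts in Con+Veh replicates 3 and 4, the libraries in which *Bmpr2* was high, and 0 to 6 in the other Con+Veh libraries, 10 to 26 in STZ-HFD and 0 or 1 in the db libraries. The transcript table lists it at 0 in all 14 libraries, so the gene counts stand alone. For the 30 members with at least 20 estimated counts in every library, the gene count was divided by the summed transcript count in each library. Among these, after *Bmpr2*, the highest ratio exceeded the lowest most in *Smad4* (4.6 to 36), *Chrdl1* (2.6 to 19.3) and *Acvrl1* (2.92 to 21.4), while that of *Tgfbi* stayed within 1.84 to 2.4. Members below that minimum also parted between the tables, such as *Tgfbr3*, with 1.17 to 113 CPM from the transcripts in Con+Veh at a gene level of 117 to 133 CPM.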
